A study of Mus musculus with 6 samples.

Results

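Piezo and Trp genes encode cation channels that open to touch, stretch, heat, irritants or calcium depletion, and 10 genes were followed here in 3 populations of mouse epidermal cells. They are Piezo1, Piezo2, Trpv1, Trpv3, Trpv4, Trpv6, Trpc1, Trpm7, Trpa1 and Trps1. The last one shares the letters of the family and none of its function: Trps1 encodes a GATA-type zinc finger repressor of transcription, so totals are given with and without it. A genomic region counted as a member when its nearest protein-coding gene span lay within 50 kb and was one of the 10 genes. This choice used position alone, and 48 of 75738 consensus regions met it, at 9 of the 10 genes. Piezo proteins are large channels gated by membrane tension. Piezo2 is the touch channel of Merkel cells and of the sensory neurons that contact them, and Piezo1 serves many epithelia. Trp channels of keratinocytes take part in sensing warmth and osmotic change and in the calcium entry that accompanies differentiation of the epidermis.

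Open chromatin was mapped by ATAC-seq, an assay that uses a transposase to insert adapters where DNA is accessible, and the data analysed were lists of called peaks. All cells came from the back skin of TNC-CREER; tdTomato mice on a C57BL/6 background, aged 60 days, after tamoxifen (100 µg per g body weight on days 51 and 52). By its name, the line carries a tamoxifen-dependent Cre under Tnc and a tdTomato reporter. Touch domes are patches of keratinocytes that house Merkel cells, and touch dome cells (TD) were sorted as positive for EPCAM, SCA1, α6-integrin and tdTomato. Interfollicular epidermis cells (IFE) had the same markers without tdTomato, and hair follicle cells (HF) were positive for EPCAM and α6-integrin and negative for SCA1 and tdTomato. Every mouse carried the transgenes and received tamoxifen, so the groups differ by the gate. Each group had 2 libraries of 50000 cells, written here as TD-1, TD-2, IFE-1, IFE-2, HF-1 and HF-2, and the labels do not say whether the 2 libraries of a group came from different mice.

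The libraries held 50153 (TD-1) to 59250 (TD-2) peaks. The lists give no heights or read counts, so the depth behind each library is unknown, and a closed region below is one without a called peak. Regions of basal keratinocyte genes (Krt5, Krt14, Trp63 and Col17a1) had peaks in 37 to 44 of 55 cases in every library. Hair follicle marker regions had peaks in 47 and 57 of 75 in TD, 41 and 41 in IFE, and 63 and 66 in HF. Of these genes, Lgr5, Lhx2 and Cd34 had fewer open regions in IFE than in both other groups. Sox9 had 5 and 6 in TD, 6 and 7 in IFE, and 8 and 7 in HF. At Nfatc1, TD (17 and 21) and IFE (19 and 19) overlapped, and Krt15 had 2 in every library. Of 16 regions at 7 Merkel cell genes, 6 and 10 were open in TD, 10 and 7 in IFE, and 11 and 13 in HF, and 9 of the 16 belong to Piezo2. The regulator of Merkel cell fate, Atoh1, was open in TD-2 and IFE-1 alone, and Krt20, a keratin of mature Merkel cells, in IFE-1 alone.

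Promoters were open at most of the channel genes for which a promoter window was available. A promoter window, 250 bases before to 50 after a start site, was at hand for 7 of the genes. A peak lay over it in all 6 libraries for 5 of the 7 (Piezo1, Trpv3, Trpv4, Trpc1 and Trpm7), in 5 libraries for Trpv6 and in none for Trpv1. Among 32851 such windows of all genes, 38.5% had a peak in every library and 54.8% in none. The 250 bases before the start are shown for the 6 promoters with a peak over the window in any library. Peaks covered all 300 bases of the window in every library at Piezo1, Trpv3 and Trpm7. At Trpv4 they covered 160 to 300 bases, at Trpc1 188 to 300 and at Trpv6 0 to 300. Not every base shown therefore lay under a peak in each library. The sequences are those of RefSeq on GRCm38.p6, written on the strand of the gene. At Trpv3, Trpv4 and Trpc1 the start site used lies slightly inside the gene span, so the last bases shown fall within it. Capitals mark GATA (the core bound by GATA factors and by the product of Trps1), TGANTCA (AP-1), GGAATG (TEAD), GGGCGG (Sp1), CCAAT (NF-Y) and TATAAA on either strand.
Piezo1, chr8:122551330-122551579, minus strand: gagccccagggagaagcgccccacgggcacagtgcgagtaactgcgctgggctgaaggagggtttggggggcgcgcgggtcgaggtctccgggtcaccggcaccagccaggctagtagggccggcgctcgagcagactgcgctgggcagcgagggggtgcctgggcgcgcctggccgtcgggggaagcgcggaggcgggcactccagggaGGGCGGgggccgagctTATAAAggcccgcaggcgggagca
Trpv3, chr11:73267270-73267519, plus strand: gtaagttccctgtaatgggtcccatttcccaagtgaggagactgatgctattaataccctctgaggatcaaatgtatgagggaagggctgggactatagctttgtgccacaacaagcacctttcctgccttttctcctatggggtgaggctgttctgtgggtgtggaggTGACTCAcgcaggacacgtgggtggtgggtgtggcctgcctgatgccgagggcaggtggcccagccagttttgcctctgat
Trpv4, chr5:114658422-114658671, minus strand: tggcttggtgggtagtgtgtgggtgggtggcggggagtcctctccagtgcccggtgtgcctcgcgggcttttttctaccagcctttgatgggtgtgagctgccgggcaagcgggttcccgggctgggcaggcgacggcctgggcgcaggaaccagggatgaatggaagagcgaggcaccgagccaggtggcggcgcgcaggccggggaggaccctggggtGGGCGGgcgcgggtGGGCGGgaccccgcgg
Trpv6, chr6:41636406-41636655, minus strand: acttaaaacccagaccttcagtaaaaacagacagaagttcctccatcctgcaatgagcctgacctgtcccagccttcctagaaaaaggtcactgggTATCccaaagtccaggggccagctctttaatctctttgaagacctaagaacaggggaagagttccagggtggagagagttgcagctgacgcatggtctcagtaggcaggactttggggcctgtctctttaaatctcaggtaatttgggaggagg
Trpc1, chr9:95750349-95750598, minus strand: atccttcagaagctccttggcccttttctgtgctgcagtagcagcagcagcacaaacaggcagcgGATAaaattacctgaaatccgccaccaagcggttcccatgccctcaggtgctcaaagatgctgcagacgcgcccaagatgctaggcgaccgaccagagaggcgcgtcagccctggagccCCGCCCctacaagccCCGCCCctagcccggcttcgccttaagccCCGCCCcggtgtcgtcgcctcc
Trpm7, chr2:126876262-126876511, minus strand: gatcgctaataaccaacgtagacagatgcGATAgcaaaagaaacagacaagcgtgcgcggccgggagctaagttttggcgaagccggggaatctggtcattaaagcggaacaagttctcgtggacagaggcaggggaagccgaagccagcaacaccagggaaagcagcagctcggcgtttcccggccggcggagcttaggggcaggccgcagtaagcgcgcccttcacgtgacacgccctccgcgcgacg

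Of these promoters, Piezo1 and Trpv4 were the richest in G and C, at 74.0% and 72.0%. Trpc1 and Trpm7 followed at 62.8% and 60.4%, and Trpv3 and Trpv6 stood at 54.4% and 49.6%, near the median of 52.4% over all windows. The closed Trpv1 promoter had 50.8%. The Sp1 letters GGGCGG occurred once at Piezo1, 2 times at Trpv4 and 3 times at Trpc1, against at least once in 32.7% of all windows, counted over the same 250 bases. The Trpv3 window held 1 AP-1 match, a motif found in 6.75% of windows. GATA occurred once each at Trpv6, Trpc1 and Trpm7 (53.6% of windows), and TATAAA once at Piezo1 (12.4%). Neither the TEAD letters (12.6% of windows) nor CCAAT (33.8%) occurred in the 6 shown. The E-box letters CANNTG, also searched and left in lower case, occurred 4 times at Trpv3, 2 times at Trpm7, once each at Trpv4, Trpv6 and Trpc1 and not at Piezo1, and 66.2% of windows held them. No 2 of these matches overlapped, and a match is only a description of the letters.

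The width of the promoter peak separated all 3 groups at Trpv4 and at no other promoter with a peak in every library. At Piezo1 it was 1523 and 2983 bp in TD, 3030 and 1592 bp in IFE, and 1589 and 1461 bp in HF, so the libraries of TD and of IFE differed widely among themselves. Trpv4 encodes a channel that opens to cell swelling and moderate warmth. Its promoter peak spanned 988 and 987 bp in TD, 798 and 469 bp in IFE, and 1229 and 1285 bp in HF, so no 2 groups overlapped. These are widths of the whole peak, which runs beyond the window. Within the window itself, peaks covered 165 and 164 bases in TD, 261 and 160 in IFE, and 300 and 300 in HF. There TD and IFE overlapped, and HF lay above both. Among regions near genes with a peak in all 4 libraries compared, cover in TD lay above IFE at 12.2%. Cover in HF lay above TD at 23.9% and above IFE at 22.9%, and the share with all 3 orders together was not counted. Trpv3, the warmth-sensing channel gene of keratinocytes, had 1920 and 1927 bp in TD, 1977 and 1915 bp in IFE, and 1999 and 1912 bp in HF, and these ranges overlapped. Trpm7, a channel fused to a kinase, had 1396 and 1405 bp in TD, 1506 and 1354 bp in IFE, and 1456 and 1417 bp in HF. TD lay just below HF at Trpm7, and IFE overlapped both. Trpc1, a subunit of receptor- and store-operated channels, had 974 and 978 bp in TD, 905 and 976 bp in IFE, and 931 and 876 bp in HF, so TD lay above HF, with a ratio of means of 1.08.

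**Figure D1:**
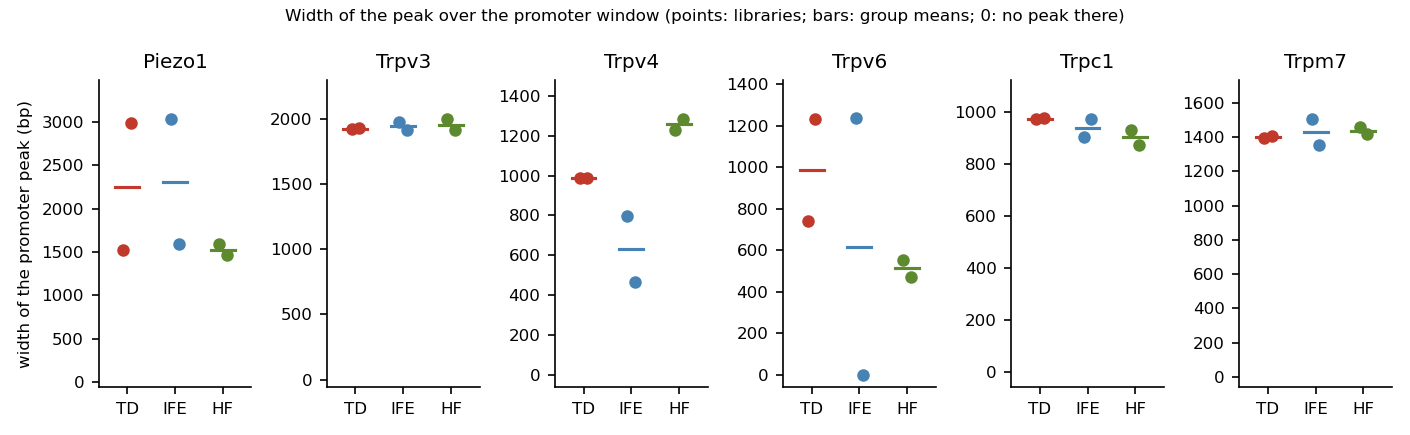
Width in bp (y axis, linear, one scale per panel) of the called peak that overlaps the promoter window of 6 channel genes, in TD, IFE and HF libraries (points) with the mean of each group (bar). Trpv3 stays between 1912 and 1999 bp in all libraries, the Trpv4 groups do not overlap, and IFE-2 has no peak over the Trpv6 window.

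Piezo2 was the channel gene that differed most between the populations, with 9 regions of which 1 was open in all 6 libraries. Its span lies at chr18:63010213-63387716, and 7 regions lay inside it. The number open was 3 and 5 in TD, 3 and 3 in IFE, and 7 and 9 in HF, so HF stood above both SCA1-positive populations. The bases under peaks, summed over the gene, came to 2.10 and 3.55 kb in TD, 1.58 and 1.86 kb in IFE, and 4.74 and 5.26 kb in HF. The 3 groups did not overlap, with means of 2.83 ± 1.02 kb in TD, 1.72 ± 0.203 kb in IFE and 4.996 ± 0.368 kb in HF (SD, n = 2 each). Summed cover was 1.64 times as large in TD as in IFE, 0.566 times as large in TD as in HF, and 0.344 times as large in IFE as in HF. Among genes with a region, 14.4% had both TD covers above both IFE covers, 22.5% had both HF above both TD and 27.1% both HF above both IFE, so such an order is common for single genes. With the wider 50% of peaks in each library, cover was 0.528 ± 0.747 kb in TD, 0 kb in both IFE libraries and 1.55 ± 0.533 kb in HF, and TD no longer lay wholly above IFE. With all annotated genes in place of protein-coding ones it was 1.80 ± 0.560 kb in TD, 1.24 ± 0.0827 kb in IFE and 2.91 ± 0.594 kb in HF.

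Several Piezo2 regions differed in which libraries had a peak. The regions at chr18:63042428-63043282 and chr18:63063017-63064188 had peaks in both TD and both HF libraries and in neither IFE library. They made up 4.17% of member regions, and 3.28% of all regions near genes had this pattern. Peaks at the first covered 764 and 652 bp in TD and 515 and 595 bp in HF, and TD lay above HF. Peaks at the second covered 701 and 1056 bp in TD and 1172 and 875 bp in HF, and these overlapped. The regions at chr18:63196209-63196718 and chr18:63422562-63423084, the second of them 34.85 kb above the span, had peaks in both HF libraries and in none of the other 4. Such regions were 4.17% of members and 6.22% of all regions near genes. They were narrow, with 462 and 440 bp in HF at the first and 472 and 450 bp at the second. A further pair, at chr18:63121910-63122205 and chr18:63338060-63338368, was called in HF-2 alone.

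The remaining Piezo2 regions had peaks in all 3 groups, and HF cover lay above both other groups only at chr18:63400887-63401483. At chr18:63199586-63200318 every library had a peak, of 639 and 674 bp in TD, 555 and 450 bp in IFE, and 685 and 643 bp in HF, with IFE below both other groups. The region at the high-coordinate end of the span, chr18:63386349-63387399, had no peak in TD-1 and 869 bp in TD-2, 628 and 850 bp in IFE, and 832 and 1051 bp in HF. The region at chr18:63400887-63401483, 13.17 kb above the span, was likewise missing in TD-1 alone, with 302 bp in TD-2, 394 and 564 bp in IFE, and 597 and 597 bp in HF. TD-1 had the fewest peaks of all libraries, and its part in these absences was not tested.

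**Figure D2:**
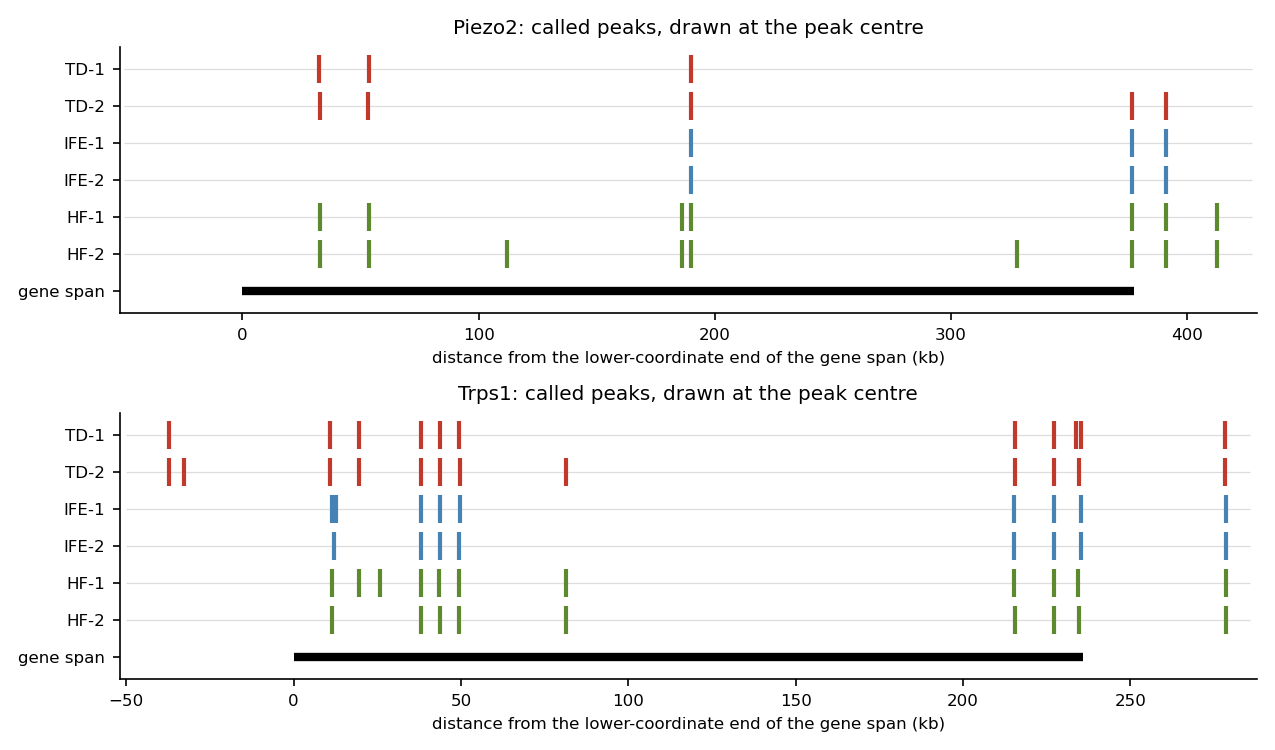
Called peaks of each library at Piezo2 (top) and Trps1 (bottom), drawn as ticks at the peak centre against the distance in kb from the lower-coordinate end of the gene span (black bar). Near the low end of Piezo2, 2 positions carry ticks in TD and HF and none in IFE, and Trps1 shows 8 positions with ticks in every library.

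Counted as regions with a peak in both libraries of one group and neither of the other, Piezo2 had 2 TD regions and 0 IFE regions. It had 0 TD and 2 HF regions in the comparison of these groups, and 0 IFE and 4 HF regions between IFE and HF. Of the 15370 genes with a region, 12.4% had at least 1 TD region against IFE and 6.58% at least 1 IFE region against TD. The shares were 21.7% for TD and 19.7% for HF between these groups, and 24.9% for IFE and 26.8% for HF between IFE and HF. All these shares ask for at least 1 region and take in genes with fewer regions than Piezo2. Only 7.94% of protein-coding genes had at least as many regions as Piezo2, and shares for such genes were not counted. Without HF-1 the counts were 4 HF regions against TD and 6 against IFE, and without TD-2 they were 2 IFE regions against TD and 4 HF regions against TD. With the wider 50% of peaks in each library, the 2 TD regions against IFE and the 2 HF regions against TD became 0, and the 4 HF regions against IFE became 1. With all annotated genes in place of protein-coding ones, 3 of the 9 regions went to long non-coding RNAs. Chr18:63063017-63064188 then fell to Gm36651, which overlaps it inside the Piezo2 span, and both regions above the span fell to Gm26972, leaving 1 TD region against IFE, 1 HF region against TD and 2 against IFE.

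Like Piezo2 cover, pooled counts of open marker regions of fibroblasts and melanocytes were lowest in IFE, and the other lists in this paragraph did not share this. Fibroblast markers (Pdgfra, Col1a1, Col1a2 and Dcn) were open at 9 and 11 of 14 regions in TD, 5 and 3 in IFE, and 13 and 12 in HF. The 1 region of Dcn was open in both TD libraries and in no IFE or HF library. Melanocyte markers were open at 18 and 23 of 27 regions in TD, 14 and 15 in IFE, and 22 and 23 in HF, with Tyr and Kit at 0. Mitf held 20 of the 27, open at 14 and 17 in TD, 10 and 11 in IFE, and 18 and 18 in HF. The 2 regions of Dct were open at 2 and 2 in TD, 1 and 1 in IFE, and 2 and 2 in HF. The melanocyte order came from these genes, mainly Mitf, and not from Pmel or Mlana. Both regions of Pmel were open in every library, and the 3 of Mlana were open at 0 and 2 in TD, 1 and 1 in IFE, and 0 and 1 in HF. The part of these cells, and of the hair follicle markers given above, in the Piezo2 result was not tested. The 6 Merkel cell genes other than Piezo2 had 7 regions, open at 3 and 5 in TD, 7 and 4 in IFE, and 4 and 4 in HF. Endothelial and mural markers were open at 15 and 17 of 28 regions in TD, 18 and 16 in IFE, and 24 and 25 in HF, with no region at Cdh5 or Rgs5. Schwann cell markers were open at 7 and 7 of 7 regions in TD, 7 and 6 in IFE, and 5 and 5 in HF. Immune markers were open at 2 and 2 of 2 regions in TD, 1 and 1 in IFE, and none in HF. Regions of the sort markers were open at 41 and 42 of 52 in TD, 43 and 37 in IFE, and 31 and 30 in HF, and Tnc and Ly6a among them set the gates.

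Piezo1, the second tension-gated channel gene, was open in much the same way everywhere. It spans chr8:122481698-122551329, and 6 of its 8 regions had a peak in all 6 libraries. Summed cover was 8.15 and 8.26 kb in TD, 9.18 and 8.01 kb in IFE, and 9.32 and 9.29 kb in HF. HF lay above both other groups, and TD and IFE overlapped. Of genes with a region, 22.5% had both HF covers above both TD covers and 27.1% both HF above both IFE. The HF excess over IFE was lost with a 1 kb gene window or with all annotated genes, at 8.59 ± 0.827 kb in IFE and 9.002 ± 0.444 kb in HF. With the wider 50% of peaks no excess was left, at 6.94 ± 0.326 kb in TD, 6.86 ± 1.89 kb in IFE and 6.81 ± 0.940 kb in HF. In no comparison did Piezo1 have a region with peaks in both libraries of one group and neither of the other. The HF excess came mainly from chr8:122536509-122538934, 13.61 kb inside the gene from its start, with 1351 and 1306 bp in TD, 1345 and 1628 bp in IFE, and 2068 and 2061 bp in HF. At chr8:122511307-122512484 cover was 993 and 1047 bp in TD, 1035 and 860 bp in IFE, and 1112 and 1178 bp in HF, and HF again lay above both.

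Other Piezo1 regions ran the other way or did not separate. At chr8:122502877-122503919 HF was the lowest, with 928 and 791 bp in TD, 1042 and 882 bp in IFE, and 743 and 772 bp in HF. At chr8:122523137-122524881 IFE was the highest, with 1387 and 1378 bp in TD, 1745 and 1534 bp in IFE, and 1520 and 1444 bp in HF. The widest region, chr8:122548672-122551772 at the start site, held 2309 to 3030 bp under peaks in the 6 libraries, with overlap between all groups. The region at chr8:122500840-122501506 held 332 to 614 bp, also with overlap. At chr8:122526158-122526676 a peak was missing in IFE-2 alone, and chr8:122556406-122557011, 5.08 kb outside the gene, was called in HF-2 alone.

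The neighbours Trpv1 and Trpv3 lie 6.17 kb apart on chromosome 11 and differed in how often their regions were shared. Trpv1, the capsaicin and heat receptor gene best known from pain neurons, spans chr11:73234149-73261322 and had 5 regions, 2 of them open in all libraries. No peak lay over its promoter, and the nearest region inside the gene, chr11:73236027-73236980, had 0 and 430 bp in TD, 326 and 0 bp in IFE, and 660 and 954 bp in HF. The region at chr11:73250362-73251708 was widest in TD, with 920 and 1347 bp against 617 and 770 bp in IFE and 719 and 913 bp in HF. The region at the gene's end, chr11:73260402-73261305, was widest in HF, with 321 and 757 bp in TD, 467 and 550 bp in IFE, and 866 and 904 bp in HF. Upstream, chr11:73231061-73231493 was called in IFE-1 alone and chr11:73230251-73230674 in HF-2 alone. Summed cover at Trpv1 was 1.24 and 2.53 kb in TD, 1.84 and 1.32 kb in IFE, and 2.25 and 3.20 kb in HF. HF thus lay above IFE, as at 27.1% of genes with a region, and overlapped TD. With the wider 50% of peaks, Trpv1 cover was 0 kb in both IFE libraries and 1.39 ± 1.96 kb in HF, and HF no longer lay wholly above IFE. Sensory neuron marker genes other than the channels had 5 regions in all, open at 3 and 4 in TD, 5 and 4 in IFE, and 2 and 1 in HF, and none at Scn10a, Scn9a or Avil.

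Trpv3 spans chr11:73267489-73300368 and had 4 regions, 3 of them open in all libraries. Beside the start-site region chr11:73266132-73268149, which equals the promoter peaks described above, it had chr11:73281461-73282090 and chr11:73283686-73284606. These inner regions lay 14.26 and 16.63 kb into the gene. At chr11:73283686-73284606 the groups did not overlap, with 823 and 774 bp in TD, 846 and 921 bp in IFE, and 704 and 721 bp in HF. At chr11:73281461-73282090 cover ran from 468 to 562 bp. The region at chr11:73274825-73275399 was called in TD-2, IFE-1 and HF-1, that is in 1 library of each group. Summed over the gene, cover was 3.22 and 3.74 kb in TD, 3.69 and 3.30 kb in IFE, and 3.77 and 3.19 kb in HF, with overlap between all 3.

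Trpv4 spans chr5:114622152-114658435 and all 4 of its regions had a peak in every library. The widest, chr5:114646976-114649470, lay 10.20 kb into the gene and held nearly the same length in each library, with 2457 and 2485 bp in TD, 2465 and 2437 bp in IFE, and 2471 and 2463 bp in HF. The start-site region, chr5:114657472-114658833, held the promoter peaks whose widths separated the groups. At chr5:114654434-114655606 TD was lower than IFE, with 633 and 1040 bp in TD, 1070 and 1061 bp in IFE, and 1104 and 1031 bp in HF. At chr5:114639211-114640171 cover ran from 829 to 946 bp. Summed cover was 5.02 and 5.36 kb in TD, 5.25 and 4.82 kb in IFE, and 5.69 and 5.61 kb in HF. HF thus lay above TD, as at 22.5% of genes with a region, and above IFE, as at 27.1%. TD and IFE overlapped.

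Trpv6, which encodes a calcium-selective entry channel of epithelia, spans chr6:41620619-41636405 and had 3 regions. The region at its start, chr6:41635201-41636672, was narrower in HF than in the other groups, with 739 and 1230 bp in TD, 1234 and 781 bp in IFE, and 555 and 473 bp in HF. The ratio of mean covers was 1.92 for TD over HF and 1.96 for IFE over HF. Of the 300 bases of the promoter window, peaks covered 44 and 300 in TD, 79 and 0 in IFE, and 37 and 67 in HF, so most of this region lay inside the gene. At chr6:41629505-41630254 both HF libraries had a peak (750 and 605 bp) and neither IFE library did, while TD-2 had one (472 bp) and TD-1 did not. The region at chr6:41622800-41623652 was called in TD-2, IFE-1 and HF-1, with 368, 833 and 551 bp, and it overlaps the long non-coding RNA gene Gm38795.

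The last 3 channel genes had few regions. Trpc1 (chr9:95705072-95750386) and Trpm7 (chr2:126791558-126876261) each had a single one, at the start site (chr9:95749606-95750608 and chr2:126875274-126876779). Trpa1, the receptor gene for pungent irritants, spans chr1:14872644-14918862 and had no region in any library. Of all protein-coding genes, 29.8% had none, and an absence here says only that no peak was called.

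Trps1 carried the most regions of the 10 genes. It spans chr15:50654757-50890631 and had 13 regions, 10 of them inside the span and 8 open in all libraries. Its flanks are empty of other protein-coding genes for 1862 kb below and 896 kb above, so every region within 50 kb fell to it. Summed cover was 11.7 and 14.4 kb in TD, 9.13 and 9.26 kb in IFE, and 14.8 and 12.4 kb in HF. Both TD libraries and both HF libraries lay above IFE, and TD and HF overlapped. Of genes with a region, 14.4% had both TD covers above both IFE covers and 27.1% both HF above both IFE. Means were 13.1 ± 1.93 kb in TD, 9.20 ± 0.0905 kb in IFE and 13.6 ± 1.70 kb in HF (SD, n = 2 each), a ratio of 1.42 for TD over IFE. Pooled over each list, open fibroblast, melanocyte and hair follicle marker regions were likewise fewer in IFE than in both other groups. Not every gene of these lists had that order, as given above, and their part in this difference was not tested.

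Wide regions toward the high-coordinate end of Trps1 made up much of this difference. At chr15:50888017-50890582 cover was 2078 and 2457 bp in TD, 1156 and 1067 bp in IFE, and 2466 and 1982 bp in HF, so the mean was 2.04 times as large in TD as in IFE. The same order, with IFE below both other groups, held at chr15:50868989-50871242 (1879 and 1613 bp in TD, 1414 and 1462 bp in IFE, 1875 and 1942 bp in HF). It held as well at chr15:50881325-50882636 (1054 and 1244 bp in TD, 853 and 927 bp in IFE, 1289 and 1004 bp in HF). At chr15:50664662-50667810, near the other end, HF was the widest, with 1819 and 2110 bp in TD, 1553 and 1968 bp in IFE, and 3144 and 2739 bp in HF. Outside the gene, at chr15:50932458-50933760, 41.83 kb above the span, cover was 1172 and 1303 bp in TD, 927 and 806 bp in IFE, and 620 and 644 bp in HF. There TD again lay above IFE, and HF was the lowest.

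Some Trps1 regions were called in part of the libraries. Chr15:50617314-50617912, 36.84 kb below the span, had peaks of 386 and 512 bp in TD and none in any other library. It was the only member region of that kind, 2.08% of members, against 0.967% of all regions near genes. Chr15:50621627-50622305 close by was called in TD-2 alone. Chr15:50674094-50674623 had peaks in both TD libraries (433 and 314 bp), in neither IFE library and in HF-1 (439 bp). Chr15:50735650-50736769 had peaks in both HF libraries (1120 and 928 bp), in TD-2 (498 bp) and in neither IFE library, and chr15:50680401-50680759 was called in HF-1 alone. The regions at chr15:50692326-50693353, chr15:50697920-50698790 and chr15:50703430-50705338 were open everywhere with overlapping TD and IFE cover, of 616 to 1833 bp, and HF lay above IFE at the first and second of them.

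**Figure D3:**
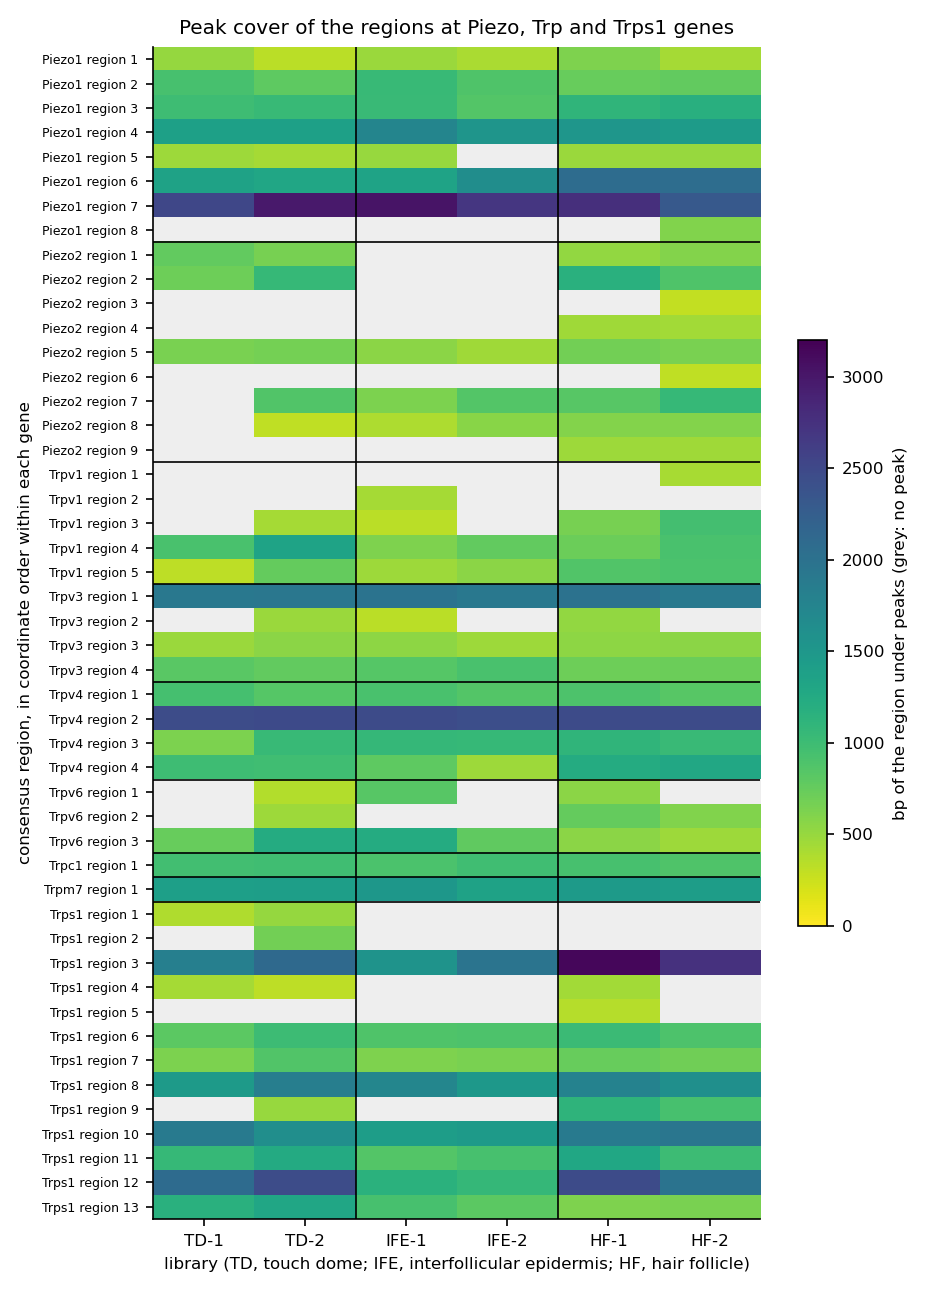
Peak cover in bp (colour; grey where no peak was called) of the 48 regions (rows, in coordinate order within each gene) in the TD, IFE and HF libraries (columns). Unbroken rows are the 27 regions open in all libraries, and the grey cells of IFE gather at Piezo2 and Trps1.

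**Figure D4:**
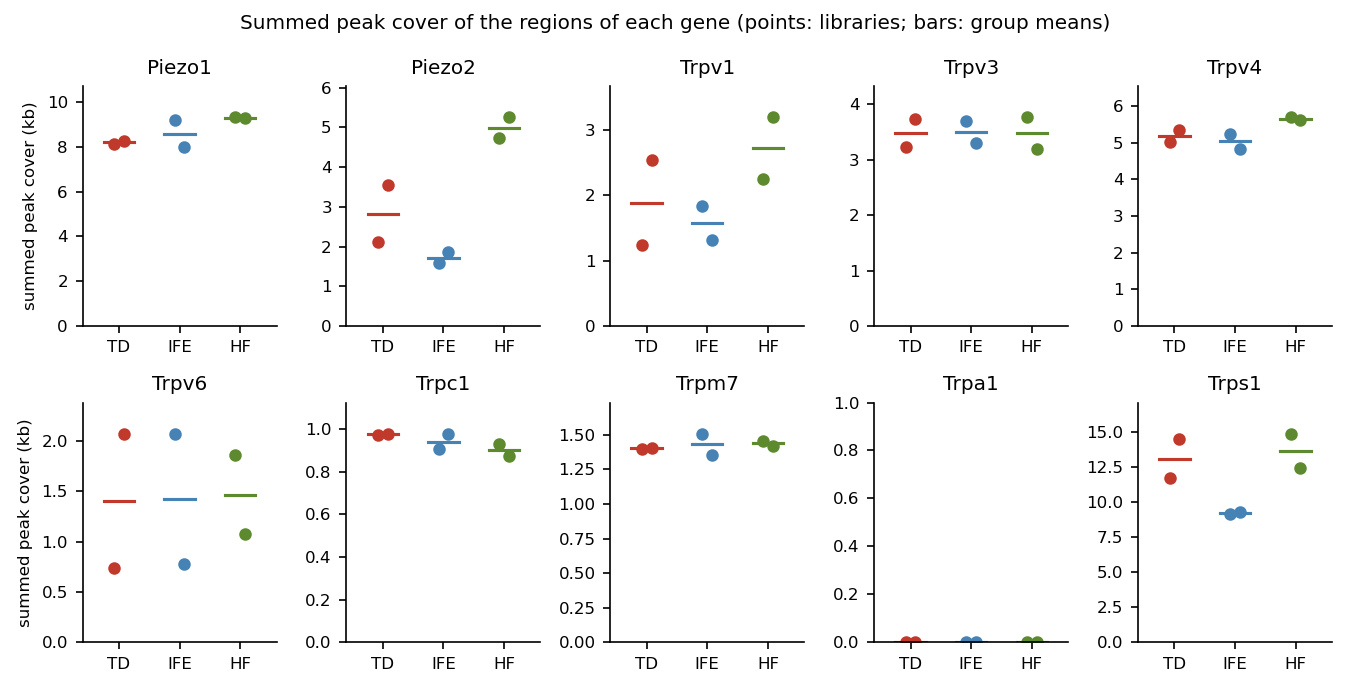
Summed peak cover in kb (y axis, one scale per panel) of the regions of each gene in TD, IFE and HF, with libraries as points and group means as bars. The groups do not overlap at Piezo2, IFE lies below both others at Trps1, and Trpv3 and Trpv6 overlap throughout.

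Over all 10 genes, differences in peak presence were few and mostly at Piezo2 and Trps1. Of the 48 regions, 27 (56.2%) were open in all 6 libraries, against 48.2% of the 62802 regions near a protein-coding gene, and 7 were called in a single library, 14.6% against 13.1%. TD and IFE differed at 4 TD regions (background 4.48%, members 8.33%) and 0 IFE regions (background 1.82%). TD and HF differed at 1 TD region (background 8.02%, members 2.08%) and 2 HF regions (background 7.26%, members 4.17%). IFE and HF differed at 0 IFE regions (background 9.91%) and 6 HF regions (background 12.8%, members 12.5%). The HF share between IFE and HF was thus close to that of all regions near genes. Without Trps1, 35 regions remained, with 2 TD regions (5.71%) and 5 HF regions (14.3%) against IFE, both near the background shares. Without both Trps1 and Piezo2 the only call left was the 1 HF region of Trpv6 against IFE.

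These counts moved with single libraries, because leaving one out loosens the criterion for its group. Without TD-1 there were 7 TD regions against IFE and 2 against HF. Without TD-2 there were 2 IFE regions and 7 HF regions against TD. Without IFE-2 there was 1 IFE region against TD and 1 against HF, and without HF-1 there were 6 HF regions against TD, 10 HF regions against IFE and 2 TD regions against HF. TD-2 had a peak at 8 member regions where TD-1 had none, and TD-1 at 0 where TD-2 had none. IFE-1 had 5 such regions over IFE-2 and IFE-2 had 0 over IFE-1, and the HF libraries had 4 each. In all, 32 and 40 member regions were open in TD, 34 and 29 in IFE, and 41 and 41 in HF, and over all regions near genes the range was 66.5% in TD-1 to 78.4% in TD-2. With 2 libraries a group there are 6 ways to split 4 libraries and the smallest two-sided exact permutation p is 0.333, so no difference here can pass a threshold of 0.05.

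Among regions with a peak in all 4 libraries compared, cover in TD lay above IFE at 7 of 27 member regions (25.9%) and below it at 3 (11.1%), while over all regions near genes the shares were 12.2% and 22.5%. Trps1 held 4 of the 7. Cover in TD lay above HF at 7 of 30 and below it at 8, against 26.5% and 23.9% over all regions. Cover in IFE lay above HF at 5 of 29 (17.2%) and below it at 13 (44.8%), against 36.8% and 22.9%. Without Trps1, cover in TD lay above IFE at 3 of 19 regions and below it at 3 (15.8% each), and cover in IFE lay above HF at 4 of 21 and below it at 7. The median log2 ratio of cover in these regions was 0.035 for TD over IFE, -0.030 for TD over HF and -0.13 for IFE over HF, against -0.029, 0.0023 and 0.038 over all regions near genes. Without Trps1 it was -0.017 for TD over IFE, which turns the sign, -0.030 for TD over HF and -0.0094 for IFE over HF.

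Other genes of the channel family and its partners were counted as 5 lists with 66 genes, of which 60 had 397 regions. Of these regions, 20 (5.04%) were TD and 10 (2.52%) IFE regions between these groups, 28 (7.05%) were TD and 35 (8.82%) HF regions, and 43 (10.8%) were IFE and 52 (13.1%) HF regions, beside background shares of 4.48% and 1.82%, 8.02% and 7.26%, and 9.91% and 12.8% in the same order. The lists differed among themselves. The 21 other Trp genes had 105 regions, with 8 TD (7.62%) and 3 IFE (2.86%), 9 TD (8.57%) and 7 HF (6.67%), and 12 IFE (11.4%) and 14 HF (13.3%) regions. They included Trpm8, the cold and menthol receptor gene, with 2 TD and 0 IFE regions, and Trpm3, a heat-sensing channel gene with 33 regions, at 2 TD and 3 IFE and at 5 IFE and 7 HF. Trpv5, Trpm1, Trpm5, Trpm6, Mcoln2, Mcoln3, Pkd2l1 and Pkd2l2 had at least 1 such region each. Trpc2, Trpc5 and Trpc6 had no region.

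The 28 mechanically or volume-gated channels and partners had 124 regions, with 9 TD (7.26%) and 0 IFE, 11 TD (8.87%) and 14 HF (11.3%), and 13 IFE (10.5%) and 23 HF (18.5%) regions. Kcnk2, which encodes the stretch-sensitive potassium channel TREK, had 18 regions with 4 TD and 0 IFE, and Asic2, an acid-sensing channel gene, had 16 with 1 IFE and 7 HF. Mdfic, whose product is an auxiliary subunit of Piezo channels, had 7 regions with 1 TD and 0 IFE and with 0 IFE and 3 HF. The others with at least 1 were Tmem63a, Tmem63b, Tmc1, Tmc5, Tmc7, Asic1, Kcnk10, Lrrc8a, Lrrc8c and Lrrc8d. Store-operated and calcium-activated channels (7 genes, 61 regions) had 0 TD and 3 IFE (4.92%), 4 TD (6.56%) and 5 HF (8.20%), and 9 IFE (14.8%) and 5 HF (8.20%) regions, at Orai2, Orai3, Stim1, Stim2, Ano1 and Saraf. Signalling partners of TRPV channels (6 genes, 61 regions) had 1 TD (1.64%) and 3 IFE (4.92%), 2 TD (3.28%) and 5 HF (8.20%), and 6 IFE (9.84%) and 5 HF (8.20%) regions, with F2rl1, Tgfa, Egfr and Plcg1 among the genes that held them. The 4 genes with a Trp symbol that encode no channel had 46 regions, 33 of them at Trp63, the gene of the epidermal regulator p63, and gave 2 TD (4.35%) and 1 IFE (2.17%), 2 TD (4.35%) and 4 HF (8.70%), and 3 IFE (6.52%) and 5 HF (10.9%) regions, at Trp63 and Trp73.

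**Figure D5:**
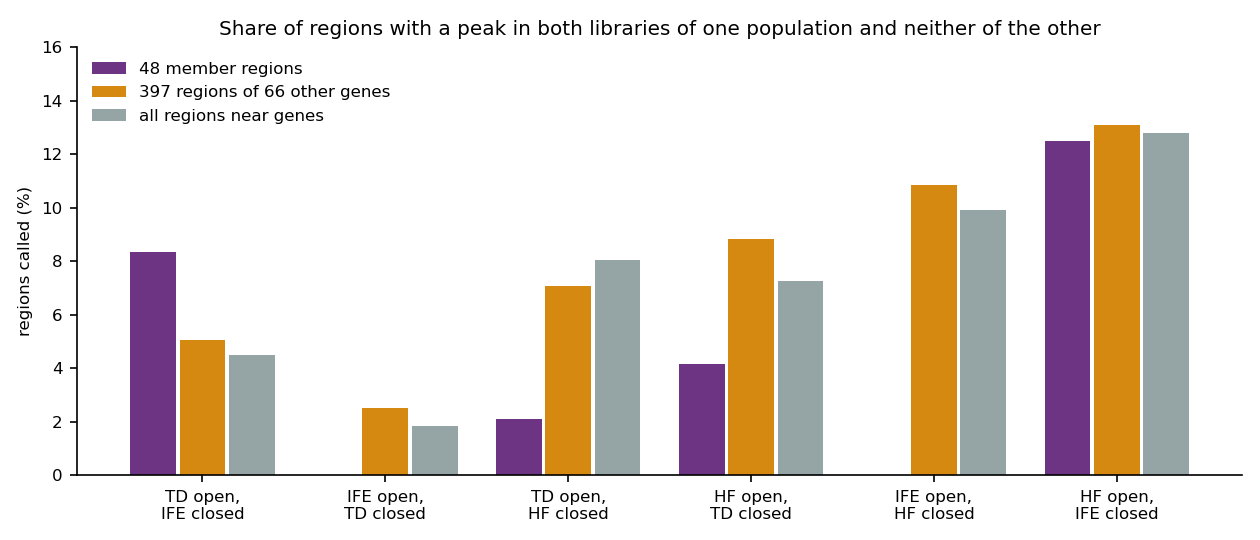
Percentage of regions (y axis) with a peak in both libraries of one population and neither of the other, for each direction of the 3 comparisons, in the 48 member regions, in the 397 regions of 66 related genes and in all regions near protein-coding genes. Member regions gave 8.33% for TD open with IFE closed, against 4.48% of all regions, and no region toward IFE. The 8.33% stands for 4 regions, and without Trps1, which is not drawn apart, the share was 5.71%.

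By the share of regions open in each of the 6 libraries, the genes nearest to Piezo2 among the 43 others with at least 3 regions were Asic2 (Euclidean distance 0.222) and Mdfic (0.269). Nearest to Piezo1 was Saraf (0.187), and nearest to Trps1 were Egfr (0.307) and Kcnk2 (0.332). Trpv1 was nearest to Trpm3 (0.282) and Asic1 (0.346), Trpv3 to Piezo1 (0.354) and Adam17 (0.363), and Tmem63a lay at a distance of 0.331 from Trpv4. Trpv6 had no close neighbour, with Lrrc8d (0.533) and Asic1 (0.546) the least distant. The distances describe the same 6 libraries and share their peak numbers.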

How the data were processed

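The deposited files are 6 peak lists, 1 per library, that hold positions and peak names and no score. Tools named by the submitters' processing notes are MACS2 2.2.7.1, SAMtools 1.9, Bowtie2 2.4.5 and Trim Galore 0.6.7, on mm10. No source used here gives their settings, thresholds or a shift for the transposase. Presence of a peak depends on the depth of its library, which is unknown.

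Peaks of all libraries that shared 1 bp or more were joined, which gave 75738 consensus regions (Python 3.11.15, pandas 2.3.3). Regions with a peak of a library are called open in it. Cover is the bp of a region under the peaks of a library. Each region was assigned to the closest protein-coding gene span up to 50 kb away, out of 21900 spans that RefSeq places on GRCm38.p6 (mm10). This placed 62802 regions (82.9%). The table gives spans without strand, exons or UTRs, so place is given by span and by the start sites of the promoter table, which matched 7 of the 10 genes. Coordinates count from 1.

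No test across regions was made, since peak calls hold no counts. The background is the share of regions or genes near genes that meet the same criterion. All 10 genes are named, as are list genes with at least 1 region that differed in presence, except an item that is not reported here. The genes and lists were chosen with earlier results of these data known. On simulated peaks, 0 of 336 library states and 0 gene assignments were wrong. Alternatives are given in the closing section.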

Additional observations from a re-analysis of the deposited data

How the results depend on the processing

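Counts below are of member regions open in both libraries of one group and neither of the other, where the values reported were 4 TD and 0 IFE, 1 TD and 2 HF, and 0 IFE and 6 HF regions. Counting a library as open only where peaks covered 50% or more of a region gave 3 TD and 4 HF and 2 IFE regions against HF. Gene windows of 10 kb and of 1 kb each gave 0 TD and 1 HF, and a window of 100 kb gave 2 TD regions against HF. The nearest of all genes and the wider 50% of peaks each gave 1 HF region against TD. Equal numbers of the widest peaks (50153 per library) gave 1 IFE region against TD and 4 HF regions against TD. Without Trps1 there were 2 TD regions against IFE and 0 against HF. All other counts under these settings lay within 1.5 times those reported, as did all of them with peaks up to 100 bp apart merged, with peaks of at least 300 bp and with tied regions counted for every gene. Leaving out 1 library gave 4 to 7 TD and 0 to 2 IFE, 1 to 2 TD and 2 to 7 HF, and 0 to 1 IFE and 6 to 10 HF regions.

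The replicate block, which asks for the difference within each same-numbered pair of libraries, is the same criterion by construction and gave 4, 0, 1, 2, 0 and 6. The labels do not say that a number marks a shared animal or day, and replicate differences of the groups correlated at 0.0545 (TD and IFE), 0.0040 (TD and HF) and 0.0591 (IFE and HF) over 75738 regions. Without heights or read counts, a weak region cannot be told apart from a closed one.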
